A study of Mus musculus with 20 samples.

Results

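Livers of mice that had lived for more than a year under the highest of 3 gamma-ray dose-rates were compared with pooled livers of unirradiated mice. The comparison used 8 of the 20 arrays of the study, chosen by their labels: 6 high dose-rate mice, 1 per array, and 2 control pools. All mice were male C57BL/6J mice, and irradiation with 137Cs gamma rays began at 8 weeks of age. In experiment 1 the high dose-rate mice received 16.6 mGy per day for 485 days, 22 h per day, which adds up to 8030 mGy. In experiment 2 they received 20.0 mGy per day for 401 days, which adds up to 8015 mGy. The control of experiment 1 was 1 array of RNA pooled from 3 unirradiated mice, and that of experiment 2 was 1 array of RNA pooled from 6. The 12 other arrays, used here for the estimate of spread and for orientation, were mice at a low dose-rate (0.042 or 0.05 mGy per day) or a medium dose-rate (0.858 or 1.00 mGy per day), 3 per level and experiment. Livers were removed directly after irradiation ended. At what time of day they were removed is not given here.

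The liver sets the blood levels of glucose, lipids and most plasma proteins, and much of its transcriptome follows the time of day, feeding and the pulses of growth hormone. Ionizing radiation is known to break DNA and to activate the transcription factor p53, which turns on genes of cell cycle arrest and cell death. Inflammatory signals such as interferons, and protein-folding stress, are sensed by separate gene programmes, each with its own transcription factors and promoter elements.

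Values are MAS5 signals on a linear scale, and differences are high dose-rate minus control within experiment on the log2(signal + 7.12) scale. A pool has no spread of its own, so 1 estimate of spread came from all 20 arrays. A pool also averages several livers, whereas each irradiated array is 1 liver. Gapdh probe sets at the 3' and 5' ends, whose ratio reports how intact the RNA is, gave 0.69 in the pool of experiment 1 and 0.706 to 0.75 in its high dose-rate mice. It was 0.916 in the pool of experiment 2 and 0.871 to 0.978 in its high dose-rate mice. The summed signal of 9 hepatocyte markers lay between 333820 and 415639 on all 8 arrays, as the tissue label says.

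In the high dose-rate livers 3 genes were higher and 3 were lower than in the pools after adjustment over all genes. The higher ones were Rnf125, which encodes a ubiquitin ligase, the unnamed transcript C730049O14Rik, and Ccdc8, a component of the 3M complex. The lower ones were St3gal5, the sialyltransferase that makes the ganglioside GM3, Lpin2, a phosphatidate phosphatase of triglyceride synthesis, and Angptl4, a secreted inhibitor of lipoprotein lipase. These were 6 of 11216 genes, or 0.0535% (0.0267% in each direction; limma, Benjamini-Hochberg adjusted p under 0.05), while 805 genes, 7.18%, had an unadjusted p under 0.05, 446 higher (3.98%) and 359 lower (3.2%). The count rests on the pools: without the pool of experiment 1 it was 1, and without the pool of experiment 2 it was 24, of which 4 were among the 6.

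Rnf125 had the smallest p. Its signal was 10308 in the pool of experiment 1 and 20947, 22342 and 22214 in the mice, and 12083 in the pool of experiment 2 against 19692, 17662 and 16572. All 6 mice were above both pools. The difference was 0.83 ± 0.11 (SE; adjusted p = 0.00373, limma). C730049O14Rik was 10362 in the first pool against 20350, 27233 and 28598, and 12871 in the second against 24970, 18454 and 18587. The mice and pools did not overlap, and the difference was 0.97 ± 0.15 (adjusted p = 0.0126, limma). Ccdc8 was dim: 13.9 and 35.8 in the pools, 125, 93.9 and 92.3 in the mice of experiment 1 and 177, 130 and 109 in those of experiment 2. Every mouse was above both pools, and the difference was 2.06 ± 0.34 (adjusted p = 0.02, limma).

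St3gal5 was 2244 in the pool of experiment 1 against 1115, 1243 and 954 in its mice, and 3188 in the pool of experiment 2 against 1463, 1418 and 1505. All 6 mice were below both pools, with a difference of -1.07 ± 0.18 (adjusted p = 0.0229, limma). Lpin2 was 6703 against 3624, 3855 and 3323 in experiment 1, and 7711 against 4407, 6044 and 4782 in experiment 2. All mice were below both pools, and the difference was -0.76 ± 0.13 (adjusted p = 0.0295, limma), though 1 of the 3 other Lpin2 probe sets had the opposite sign. Angptl4 was 4782 against 1770, 1330 and 1995, and 6124 against 1211, 2398 and 2229. All mice were below both pools, and the difference was -1.61 ± 0.30 (adjusted p = 0.0377, limma). Without the filter on dim probe sets, another Angptl4 probe set is taken, and there the difference was -0.19 (adjusted p = 0.978, limma).

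The same 6 genes were read in the low and medium dose-rate mice. Rnf125 differed from the pools by 0.42 at the low and 0.73 at the medium dose-rate, against 0.83 at the high one. C730049O14Rik differed by 0.59, 0.93 and 0.97 in that order. Angptl4 differed by -0.63, -1.21 and -1.61, and Lpin2 by -0.55, -0.72 and -0.76. Ccdc8 and St3gal5 had no such order: Ccdc8 differed by 2.17, 2.12 and 2.06, and St3gal5 by -0.99, -0.96 and -1.07. These 3 comparisons share the pools. Set against the low dose-rate mice directly, none of the 6 genes passed the threshold, with adjusted p from 0.085 for Rnf125 to 0.911 for Ccdc8 (limma). Over all genes, 0 passed in high against low, where 1127 (10%) had an unadjusted p under 0.05, and 0 in high against medium, where 431 (3.84%) did (limma).

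**Figure D1:**
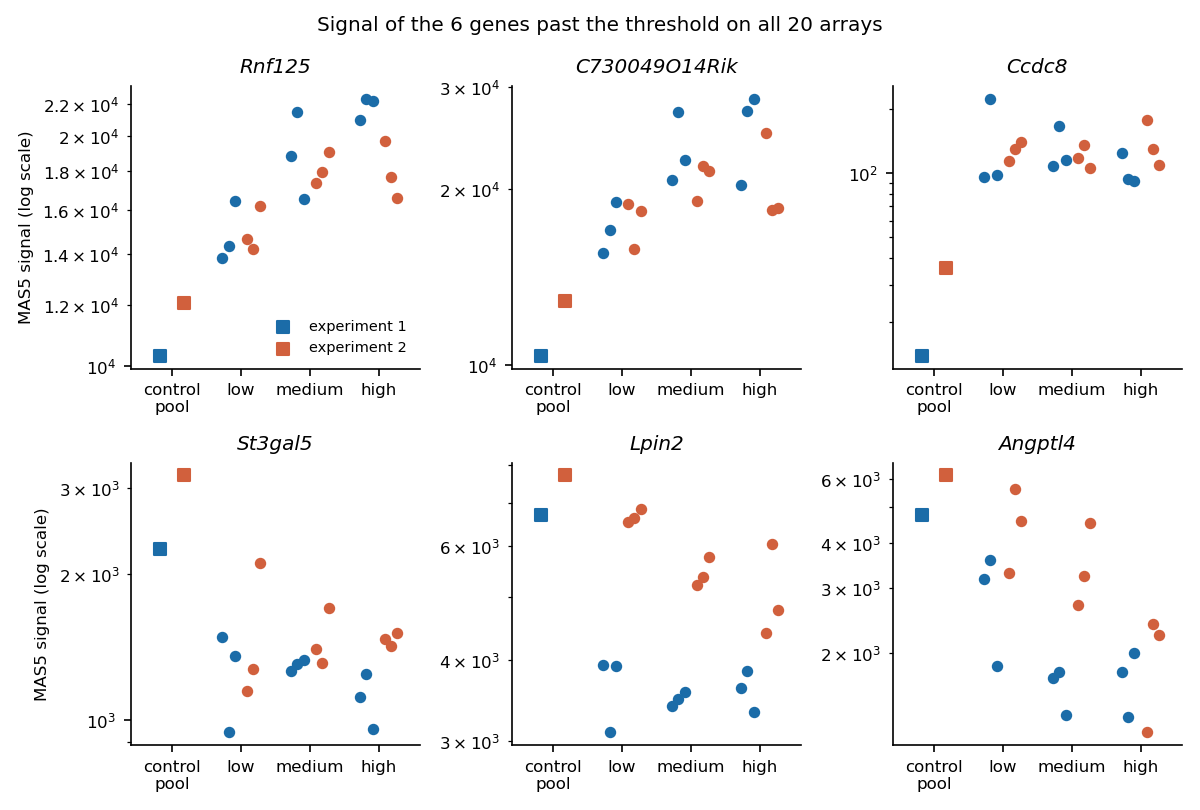
MAS5 signal (log axis) of the 6 genes past the threshold on all 20 arrays, by dose level. Squares are control pools and circles are single mice, in blue for experiment 1 and orange for experiment 2. In each panel the high dose-rate mice lie on one side of both pools. Over both experiments together the medium dose-rate mice overlap the high ones, and so do the low dose-rate mice except for Rnf125. Within a single experiment some do not overlap, such as low dose-rate Lpin2 and Angptl4 in experiment 2. Others are medium dose-rate Angptl4 in experiment 2, and low dose-rate C730049O14Rik and medium dose-rate St3gal5 in experiment 1.

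Fitted to the 6 high dose-rate arrays and the 2 pools alone, the same model called 15 genes, 3 higher and 12 lower, of which 3 were shared with the fit on all arrays (Rnf125, St3gal5 and Angptl4). The spread, with 5 residual degrees of freedom, then takes nothing from the low and medium dose-rate mice. It comes from the high dose-rate mice and from how far their difference from the pool disagreed between experiments, so the pools enter it. Lpin1, a second lipin, was 4075 in the pool of experiment 1 against 1851, 2202 and 1688, and 7141 in that of experiment 2 against 2636, 2977 and 3366 (-1.18; adjusted p = 0.0064 in this fit and 0.24 in the fit on all arrays, limma). Its low dose-rate mice ran from 1524 to 7789, which spans both pools. Alas1, the first enzyme of heme synthesis, was 11694 against 4219, 4622 and 4942, and 15554 against 4804, 5058 and 8354 (-1.38; adjusted p = 0.0101 and 0.346, limma). Its low dose-rate mice ran from 5471 to 22111. Socs2, a feedback inhibitor of growth hormone signalling, was 1282 against 410, 653 and 460, and 2046 against 665, 857 and 721 (-1.40; adjusted p = 0.0101 and 0.441, limma), with 1 of 5 other probe sets of opposite sign.

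The other genes lower in the fit on 8 arrays were Dbp, Gne, Herpud1, Slc25a30, Mknk2, Slc22a5 and Acot1. Gne, the enzyme that starts sialic acid synthesis, was 4068 and 4238 in the pools and 2203 to 2639 in the 6 mice. Acot1, an acyl-CoA thioesterase induced by PPAR alpha, was 3092 and 2953 in the pools and 1325 to 2059 in the mice. Slc22a5, the carnitine transporter, was 1431 and 2048 in the pools and 729 to 1077 in the mice. The 2 higher genes beside Rnf125 were Ppp1r3c, which directs protein phosphatase 1 to glycogen, and Cyp8b1, the sterol 12-alpha-hydroxylase of bile acid synthesis. Ppp1r3c was 5242 and 3410 in the pools and 6767 to 10215 in the mice, and Cyp8b1 was 3523 and 7190 in the pools and 7871 to 15215 in the mice.

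The experiments had separate mice, pools and durations, so each gives its own difference. Across the 11216 genes these correlated weakly (Pearson r = 0.116, Spearman rho = 0.139, a description over genes, which are not independent replicates), and 55.8% had the same sign. In the fit 50.4% of genes were above 0 and 49.6% below. The difference was beyond 1 in either direction for 500 genes in experiment 1 and 283 in experiment 2, with 35 in both with the same sign and 25 with opposite signs. In 1858 genes, 16.6%, all 6 mice lay on one side of their own pool, 941 above (8.39%) and 917 below (8.18%). Only Cela3b, a pancreatic elastase, had an effect that differed between experiments (1 gene, 0.00892%). Its signal was 7.87 in the pool of experiment 1 against 156, 133 and 132, and 156 in the pool of experiment 2 against 136, 111 and 124. The low value is that of 1 pool. In high against control over both experiments, 2 of the 3 other Cela3b probe sets had the opposite sign, which does not bear on the difference between experiments. The difference of the effects was -3.62 (adjusted p = 0.022, limma), and it did not pass in the fit on 8 arrays.

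**Figure D2:**
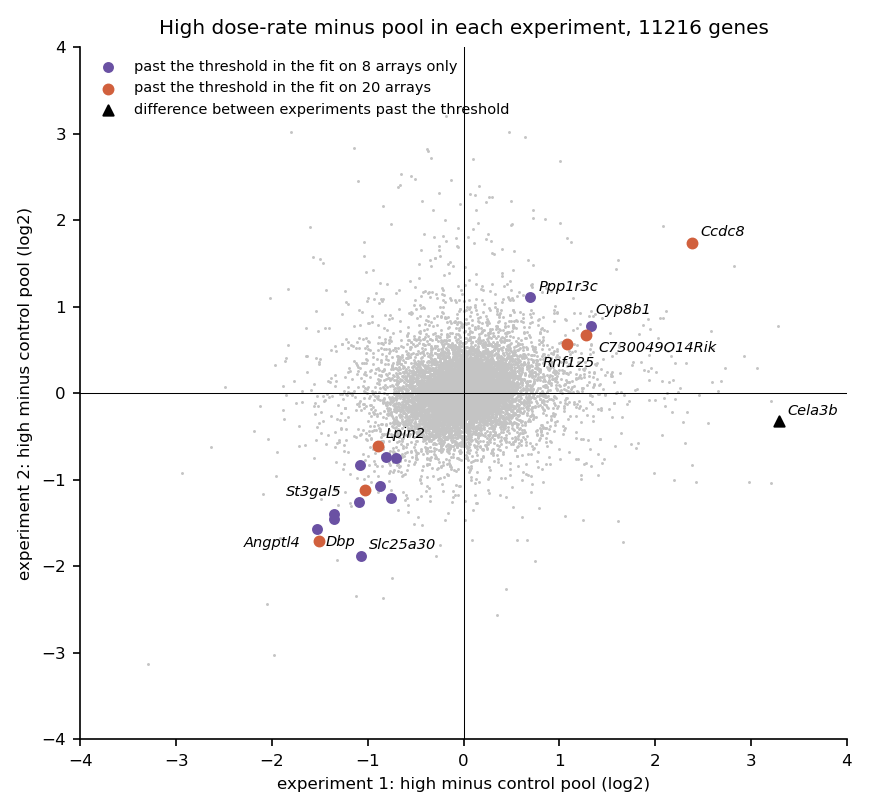
High dose-rate minus control pool in experiment 1 (x axis, log2) and experiment 2 (y axis, log2), 1 grey point per gene for 11216 genes. The 6 genes past the threshold (orange) and the 12 past it in the fit on 8 arrays only (violet) lie in the quadrants of equal sign, and Cela3b (triangle) lies at 3.30 in experiment 1 and -0.33 in experiment 2.

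A further rule took genes at least 1.5-fold from their own pool in all 6 mice, which held for 45 genes, 0.401% (26 higher, 0.232%, and 19 lower, 0.169%). Among the 9 higher ones with a signal of at least 200 were Smoc2, a matricellular protein, Oasl1, an interferon-induced protein, and Zfp580. Zfp580 was 137 and 140 in the pools and 222 to 285 in the mice (0.85 ± 0.18), and Smoc2 was 114 and 182 against 240 to 370 (1.07 ± 0.25). Ssr4 was 181 and 53.2 against 199.7 to 344, but its probe set of highest mean gave a difference of -0.18. Among the 17 lower ones were Zbtb16, Usp2, Dbp and Angptl4, and Obp2a, an odorant-binding protein that is higher in male liver. None of those named here besides Angptl4 passed the threshold over all arrays. Zbtb16 had the smallest adjusted p of these, 0.0614 (limma).

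Of the genes of the circadian clock, none passed the threshold over all arrays, and members of each branch lay on one side of their pools in all mice. The activators CLOCK and BMAL1 (gene Arntl) bind E-box elements and turn on the Per and Cry repressors, the Nr1d1 and Nr1d2 receptors that repress Arntl, and output factors such as Dbp and Tef. Arntl was 267 in the pool of experiment 1 against 684, 619 and 554, and 341 in that of experiment 2 against 608, 511 and 622, so all 6 mice were above both pools (0.97 ± 0.26; adjusted p = 0.3, limma). Nr1d1 was 717 against 488, 320 and 377, and 937 against 841, 727 and 556 (-0.65 ± 0.25), and Nr1d2 was 0.36 lower on the log2 scale, with a fitted difference of -0.36 ± 0.09. Of the 7 activators and receptors tested, 4 were higher and 3 lower, 1 lay above (8.39% of all genes) and 2 below (8.18%) their pool in all mice, and the median was 0.04, or 0.10 without the pool of experiment 2.

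Among the repressors Per1 was 209.7 against 33.4, 7.85 and 62.7 in experiment 1, and 288 against 185, 156 and 215 in experiment 2. Each mouse was below its own pool, although the highest mouse of experiment 2 was above the pool of experiment 1. Per1 differed by -2.64 in experiment 1 and by -0.63 in experiment 2, and it did not pass the threshold (adjusted p = 0.415, limma). Per2 was 243 against 112, 63 and 68, and 288 against 154, 209 and 230 (-1.04 ± 0.35), and Cry2 was below its pool in 6 of 6 mice (-0.37 ± 0.20). Of the 8 clock repressors tested, 5 were lower and 3 lay below their pool in all mice, with a median of -0.28 against 0.00 over all genes. Of the 12 clock outputs tested, 6 lay below their pool in all 6 mice, or 6 of 12 against 8.18% of all genes, and the median was -0.38. At the low and medium dose-rates the repressor medians were -0.21 and -0.25, and the output medians were -0.23 and -0.25.

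Dbp, an output transcription factor, was 1290 in the pool of experiment 1 against 408, 482 and 438, and 2472 in that of experiment 2 against 1121, 701 and 719. No mouse reached the level of either pool, and the difference was -1.55 ± 0.36 (adjusted p = 0.185 over all arrays and 0.0064 on the 8 arrays, limma). Usp2, a ubiquitin protease with daily expression, was 359 against 183, 109 and 207, and 924 against 100.1, 302 and 179.5 (-1.74 ± 0.36). Tef was 1758 against 1514, 1200 and 1279, and 2749 against 1831, 1736 and 1764 (-0.52 ± 0.12), with 1 of 2 other probe sets of opposite sign. With each probe set tested by itself, Dbp (-1.84) and Usp2 (-2.26) passed the threshold at other probe sets. Dbp, Usp2 and Per1 also lay below the pools at the low dose-rate, by -1.38, -0.98 and -0.26. The part of the time of killing in these values was not tested.

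Promoter sequences are shown for Per1 and Tef because each holds the E-box that CLOCK and BMAL1 bind. The windows are the 250 bases before the transcription start in RefSeq (GRCm38.p6), 5' to 3' along the gene, with the motif in capitals. The Per1 window is chr11:69098699-69098948 on the plus strand, with its match starting at base -166. The Tef window is chr15:81802423-81802672 on the plus strand, with its match starting at base -127.
Per1: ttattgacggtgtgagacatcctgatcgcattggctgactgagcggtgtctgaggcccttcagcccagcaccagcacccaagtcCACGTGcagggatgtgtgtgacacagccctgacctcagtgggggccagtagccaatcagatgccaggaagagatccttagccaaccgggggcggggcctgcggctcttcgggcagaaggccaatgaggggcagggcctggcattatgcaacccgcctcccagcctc
Tef: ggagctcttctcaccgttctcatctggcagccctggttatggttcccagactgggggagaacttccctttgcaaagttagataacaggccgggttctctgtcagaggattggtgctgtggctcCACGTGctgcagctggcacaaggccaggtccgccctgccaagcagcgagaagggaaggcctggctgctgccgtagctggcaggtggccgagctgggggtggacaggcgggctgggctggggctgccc
The E-box searched was CACGTG, which reads the same on both strands. It was in 2 of 5 clock repressors and 2 of 10 clock outputs with a window, in 6.02% of all 32851 windows and in 10.1% of the tested genes that had at least 1 window. It was in 0 of 7 clock activators and receptors, which include Nr1d1 and Nr1d2, and Dbp had no match. Among the pathway lists outside the clock the share ran from 0.0% to 27.8%, so the share in clock outputs, 20.0%, is not particular to the clock. A match is a description of the sequence and not a bound site.

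Glucocorticoids also follow the day and induce their own set of liver genes. Zbtb16, a transcription factor of that set, was 780 in the pool of experiment 1 against 167, 94.3 and 382, and 1060 in that of experiment 2 against 193, 216 and 164 (-2.24 ± 0.43). All mice were below both pools. Klf9, a transcription factor, was 7722 against 4734, 5038 and 5143, and 12617 against 10198, 7198 and 7591 (-0.63 ± 0.16). Fkbp5, which holds the receptor inactive, and Errfi1 were also below their pool in 6 of 6 mice (-0.62 and -0.46), while Sgk1 differed by 0.47 in the other direction. Of 17 members tested, 9 were lower and 4 lay below the pool in all mice, against 8.18% of all genes. The list's median of -0.24 depended on the pool of experiment 2: without it the median was 0.12.

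**Figure D3:**
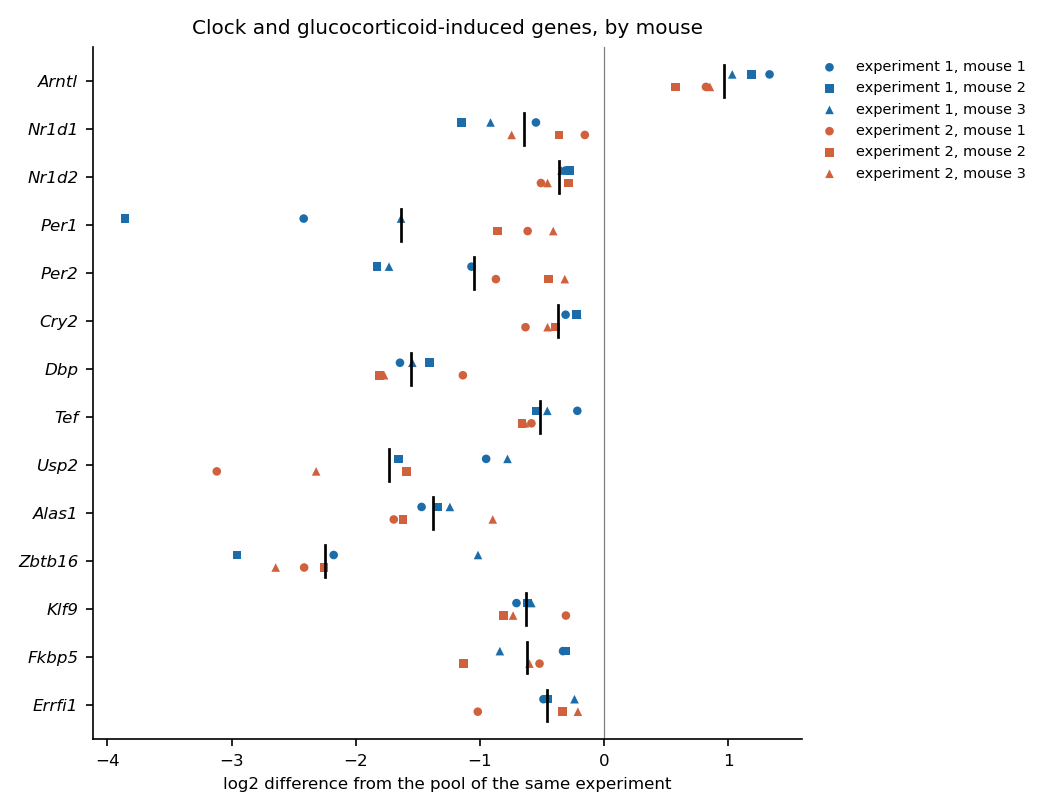
Log2 difference of each high dose-rate mouse from the pool of its own experiment for 14 clock and glucocorticoid-induced genes, blue for experiment 1 and orange for experiment 2, with the fitted difference as a black bar. Only members with all 6 mice on one side of their pool are shown. By that choice each gene has 1 sign: Arntl is above 0 and the other 13 genes are below 0. Of all members tested, 4 of 7 activators and receptors and 3 of 8 repressors were higher in the fit. So were 3 of 12 outputs and 8 of 17 glucocorticoid-induced genes.

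Of 22 heat shock genes tested, 18 had a difference below 0, and none passed the threshold. Heat shock factor 1 induces cytosolic chaperones, which fold proteins and prevent aggregation. Hspa1b, an inducible HSP70, was 5454 in the pool of experiment 1 against 943, 446 and 836, and 1945 in that of experiment 2 against 720.2, 1306 and 1128. All mice were below both pools (-1.93 ± 0.58), though its near-identical neighbour Hspa1a can share its signal. Bag3, a cochaperone, was 1463 against 785, 767 and 391, and 1292 against 757, 1216 and 1232 (-0.77 ± 0.29). Hsph1 (-0.78), Hspa8 (-0.74), Stip1 (-0.59) and Chordc1 (-0.48) were each below their own pool in 6 of 6 mice. The mitochondrial Hspd1 was at 0.01 and the cochaperone St13 at 0.00.

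Of the 22, 10 lay below their pool in all 6 mice, against 8.18% of all genes, and the median was -0.32. Low and medium dose-rate mice had medians of -0.14 and -0.24 against the same pools. The pool of experiment 1 was higher than that of experiment 2 for Hspa1b and for Hspa8, which was 16779 and 4389 in the pools. Without that pool the list's median was -0.16, and without the pool of experiment 2 it was -0.48. The Hspa1b window is chr17:34959239-34959488 on the minus strand, shown because it holds the heat shock element GAANNTTC at base -104 (capitals).
Hspa1b: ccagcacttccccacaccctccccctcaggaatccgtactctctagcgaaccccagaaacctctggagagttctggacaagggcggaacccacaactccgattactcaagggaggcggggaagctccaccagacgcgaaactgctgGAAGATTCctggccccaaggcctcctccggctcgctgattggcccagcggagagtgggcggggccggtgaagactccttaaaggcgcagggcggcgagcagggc
That element, which reads the same on both strands, was in 7 of 17 heat shock genes with a window, or 41.2%, in 6.69% of all windows and in 6.15% of the tested genes with a window. The tail-to-tail form TTCNNGAA was also searched. It was in 3 of 17 heat shock genes, or 17.6%, and in 7.17% of all windows.

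Genes of endoplasmic reticulum (ER) stress had differences below 0 in 23 of 25 cases, none past the threshold over all arrays. The list holds chaperones, which fold the proteins that hepatocytes secrete, and genes with other roles. Herpud1, a part of the machinery that removes misfolded proteins, was 21948 in the pool of experiment 1 against 10373, 11780 and 14091, and 27251 in that of experiment 2 against 12834, 14636 and 11607. All mice were below both pools (-0.97 ± 0.20; adjusted p = 0.106 over all arrays and 0.0133 on the 8 arrays, limma). A second Herpud1 probe set passed the threshold when each probe set was tested by itself (-1.01), with 17517 and 14837 in the pools and 7432 to 8275 in the mice. Dnajb9 (-0.59), Canx (-0.58), Xbp1 (-0.44) and Derl1 (-0.18) were below their own pool in 6 of 6 mice.

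Of the 25 ER stress genes, 12 lay below their pool in all 6 mice, against 8.18% of all genes, with a median of -0.27. Against the same pools this median was -0.15 at the low and -0.31 at the medium dose-rate. Genes that answer amino acid shortage were a separate list, with 8 of 17 above 0, 9 below and a median of -0.04, or -0.16 without the pool of experiment 2. The 1 member above its pool in all 6 mice, against 8.39% of all genes, was the transcription factor Atf4: 3147 against 3831, 5061 and 3842, and 2442 against 3950, 3598 and 3890 (0.53 ± 0.14; adjusted p = 0.247, limma). The ER stress median was -0.13 without the pool of experiment 1 and -0.45 without that of experiment 2. The Herpud1 window, chr8:94386179-94386428 on the plus strand, is shown for its 2 NF-Y boxes, which start at bases -52 and -18. It was chosen after its values were seen.
Herpud1: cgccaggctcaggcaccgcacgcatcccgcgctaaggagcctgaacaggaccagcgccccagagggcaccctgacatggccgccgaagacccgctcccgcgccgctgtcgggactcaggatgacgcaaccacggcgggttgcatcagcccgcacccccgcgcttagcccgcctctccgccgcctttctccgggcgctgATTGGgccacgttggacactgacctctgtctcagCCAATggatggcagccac
The box searched was CCAAT on either strand. It was in 19 of 21 ER stress genes with a window, or 90.5%, in 33.8% of all windows and in 40.1% of the tested genes with a window. It was also in 16 of 16 cholesterol genes.

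Of 26 interferon-induced genes tested, 23 had a difference above 0, and none passed the threshold. Interferons act through STAT and IRF factors at the element ISRE, and the GTPases they induce attack the vacuoles of intracellular microbes. Igtp was 1414 in the pool of experiment 1 against 2332, 3573 and 1984, and 1759 in that of experiment 2 against 2459, 1994 and 2654 (0.63 ± 0.24). Irgm1 was 1408 against 2170, 3261 and 1804, and 1238 against 1692, 1450 and 1730 (0.56 ± 0.21). Usp18, which restrains the interferon receptor, was 249.8 against 920.4, 2473 and 718, and 313 against 401, 415 and 388 (1.28 ± 0.54). Rsad2, an antiviral enzyme, was 690.0 against 1505, 5218 and 1657, and 738 against 1220, 793 and 819 (1.04 ± 0.48). The second mouse of experiment 1 was the highest of the 6 for each of these genes.

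All 9 interferon-inducible GTPases tested were higher and 6 lay above their pool in all 6 mice, against 8.39% of all genes, with a median of 0.59. Their median was 0.05 at the low and 0.08 at the medium dose-rate. In the wider interferon list 7 of 26 lay above their pool in all 6 mice, and the median was 0.38, or 0.18 without the pool of experiment 1. The medians were 0.73 in experiment 1 and 0.08 in experiment 2, and the interaction called no member of either list, so a difference between experiments was not shown. By mouse, the list's median was 0.68, 1.08 and 0.38 in experiment 1 and 0.11, 0.05 and -0.04 in experiment 2. Kupffer cell and macrophage markers, 12 tested, had 0 members above their pool in all mice, and their summed signal was 26126 and 31013 in the pools and 23411 to 34454 in the mice. B cell markers, 4 tested, summed to 1428 and 2190 in the pools and 1680 to 4064 in the mice, with a median of 0.58. In whole liver, a change in the number of cells of a type and a change in RNA per cell cannot be told apart. Their part in the result was not tested.

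Promoters of Igtp and Irgm1, chosen after their values were seen, are shown for their ISRE. The Igtp window is chr11:58199306-58199555 on the plus strand, with a match at base -34. The Irgm1 window is chr11:48871421-48871670 on the minus strand, with overlapping matches at bases -30 and -24.
Igtp: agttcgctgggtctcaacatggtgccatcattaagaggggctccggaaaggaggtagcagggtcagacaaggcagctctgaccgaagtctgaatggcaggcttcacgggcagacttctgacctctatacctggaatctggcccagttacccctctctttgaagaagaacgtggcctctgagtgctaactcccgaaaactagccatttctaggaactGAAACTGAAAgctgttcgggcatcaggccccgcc
Irgm1: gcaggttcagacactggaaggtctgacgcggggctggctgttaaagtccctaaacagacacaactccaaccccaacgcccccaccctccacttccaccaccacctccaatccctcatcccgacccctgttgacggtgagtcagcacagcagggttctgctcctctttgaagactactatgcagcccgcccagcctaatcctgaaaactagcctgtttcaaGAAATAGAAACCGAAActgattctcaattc
The element searched was a pair of GAAA repeats with 2 bases between them, on either strand. It was in 6 of 7 GTPase genes and 8 of 20 interferon genes with a window, in 2.98% of all windows and in 3.16% of the tested genes with a window. Among genes of antigen presentation, all 7 MHC class II genes had differences above 0, 4 in all 6 mice (8.39% of all genes), with a median of 0.43, or 0.26 without the pool of experiment 1. The class II median was 0.33 at the low and 0.23 at the medium dose-rate. Nlrc5, the activator of MHC class I genes, was 202 and 406 in the pools and 393 to 572 in the mice (0.70 ± 0.18).

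**Figure D4:**
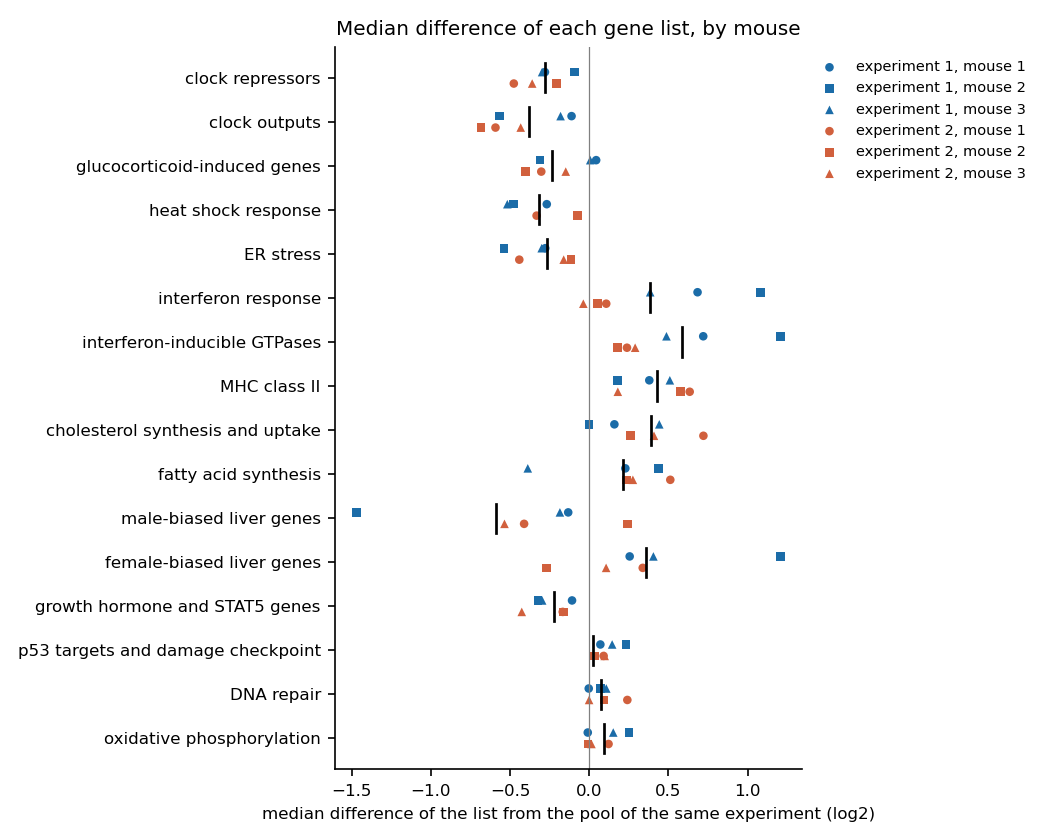
Median log2 difference of the members of 16 gene lists for each high dose-rate mouse against the pool of its own experiment, blue for experiment 1 and orange for experiment 2, with the fitted median as a black bar. Medians are below 0 in all 6 mice for ER stress, heat shock, clock repressors, clock outputs, and growth hormone and STAT5 genes. They are above 0 in all 6 for interferon-inducible GTPases, MHC class II, and p53 targets and checkpoint genes. The male-biased list is most spread, from -1.47 to 0.24.

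Of 20 cholesterol synthesis and uptake genes tested, 19 had a difference above 0, and none passed the threshold. SREBP2 turns this pathway on when sterols are scarce. The sterol regulatory element, searched as TCACNCCAC on either strand, was in 1 of 16 of these genes with a promoter window, or 6.25%. It was in 1.29% of the tested genes with a window. Sqle, squalene epoxidase, was 329 in the pool of experiment 1 against 1096, 488 and 1901, and 378 in that of experiment 2 against 1594, 778 and 888 (1.51 ± 0.52). Hmgcs1, which makes HMG-CoA, was 13819 against 18140, 21028 and 31355, and 12964 against 21624, 15599 and 19542 (0.63 ± 0.18). Fdft1 (0.54), Lss (0.61) and Sc5d (0.34) were above their own pool in 6 of 6 mice. Of the 20, 9 lay above their pool in all mice, against 8.39% of all genes. The median was 0.39, with 0.55 when the pool of experiment 1 was left out and 0.24 when that of experiment 2 was. At the low dose-rate it was -0.02 and at the medium one 0.28.

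Of 21 fatty acid synthesis genes, 18 had a difference above 0, 3 of them in all 6 mice (8.39% of all genes), with a median of 0.21 and none past the threshold. Scd2, a stearoyl-CoA desaturase, was 219 and 301 in the pools and 315 to 843 in the mice, and Srebf1, the regulator of the pathway, was 6487 and 8608 in the pools and 6241 to 19088 in the mice. Pparg, a driver of lipid storage, was 471 and 626 in the pools and 791 to 1496 in the mice (0.94 ± 0.28), and Agpat2, which makes phosphatidic acid, differed by 0.46 ± 0.12. The third mouse of experiment 1 was low for this list, with a median of -0.39. Among PPAR alpha targets and other genes that burn fatty acids, 31 were tested, 4 were below (8.18% of all genes) and 1 above (8.39%) their pool in all mice, with a median of -0.03 that was 0.06 without the pool of experiment 2. Acot1 (-0.96), Creb3l3 (-0.35) and Cpt1a (-0.31) were among those below.

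Single genes of glucose and bile acid handling lay on one side of the pools. Igfbp1, a binding protein of insulin-like growth factors that insulin represses, was 3029 in the pool of experiment 1 against 3776, 6640 and 4986, and 1906 in that of experiment 2 against 5944, 5062 and 5091 (1.10 ± 0.35). Pck1, the entry enzyme of gluconeogenesis, was 23688 against 15944, 11403 and 17002, and 20345 against 9045, 14953 and 17130 (-0.66 ± 0.23). The 21 insulin, fasting and glucose genes had a median of 0.03, or -0.12 without the pool of experiment 2. In bile acid synthesis, Cyp39a1 was 881 and 932 in the pools and 421 to 629 in the mice (-0.73 ± 0.29). Abcb4, the phospholipid exporter of bile, differed by -0.34 and Bhmt2, a methyltransferase that makes methionine, by 0.49, each in 6 of 6 mice.

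Genes that differ between male and female liver varied most between the high dose-rate mice. Growth hormone pulses, sensed through STAT5, maintain the male pattern. Hsd3b5, a male-biased steroid enzyme, was 7043 in the pool of experiment 1 against 3600, 12.3 and 5263, and 1030 in that of experiment 2 against 11.5, 2098 and 35.2. The second mouse of experiment 1 and the first and the third of experiment 2 were low, and the others were not. Slco1a1, a male-biased transporter, was low in the same mice: 6495 against 4319, 128 and 6033, and 3823 against 1374, 5339 and 660. The female-biased Hamp2, a hepcidin, was 3924 against 10238, 23020 and 4237, and 6305 against 18037, 5889 and 12080. Those 3 mice had the highest Hamp2 signals and also the lowest Egfr among the 6, at 905, 1094 and 2032.

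These genes also varied at the other dose-rates: Hsd3b5 ran from 62.6 to 13248 in low dose-rate mice and from 37.5 to 7002 in medium ones. Of the 17 male-biased genes tested, 17 were lower in the fit, with a median of -0.59 (-0.33 without the pool of experiment 1). Of these 4 lay below the pool in all mice, against 8.18% of all genes, and none passed the threshold. By mouse the median ran from -1.47 to 0.24. The list's median was -0.12 at the low and -0.36 at the medium dose-rate. Keg1, one of the 4, was 16037 against 9237, 7386 and 11859, and 13032 against 5393, 8659 and 6935 (-0.85 ± 0.27). Of the 14 female-biased genes, 12 were higher, none in all 6 mice, with a median of 0.36 that was 0.05 without the pool of experiment 1 and 0.94 without that of experiment 2. Of 12 growth hormone and STAT5 genes tested, 8 were lower and 4 higher, with a median of -0.23 and none past the threshold over all arrays, and 4 lay below their pool in all mice (8.18% of all genes). Those 4 were Socs2, Socs3, Cish and Igfals, which answer growth hormone or cytokines through STAT factors, with differences of -1.40, -0.89, -0.92 and -0.35. The hormone receptor Ghr was at 0.09, Jak2 at 0.17, Stat5a at 0.28 and Igf1 at 0.02.

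**Figure D5:**
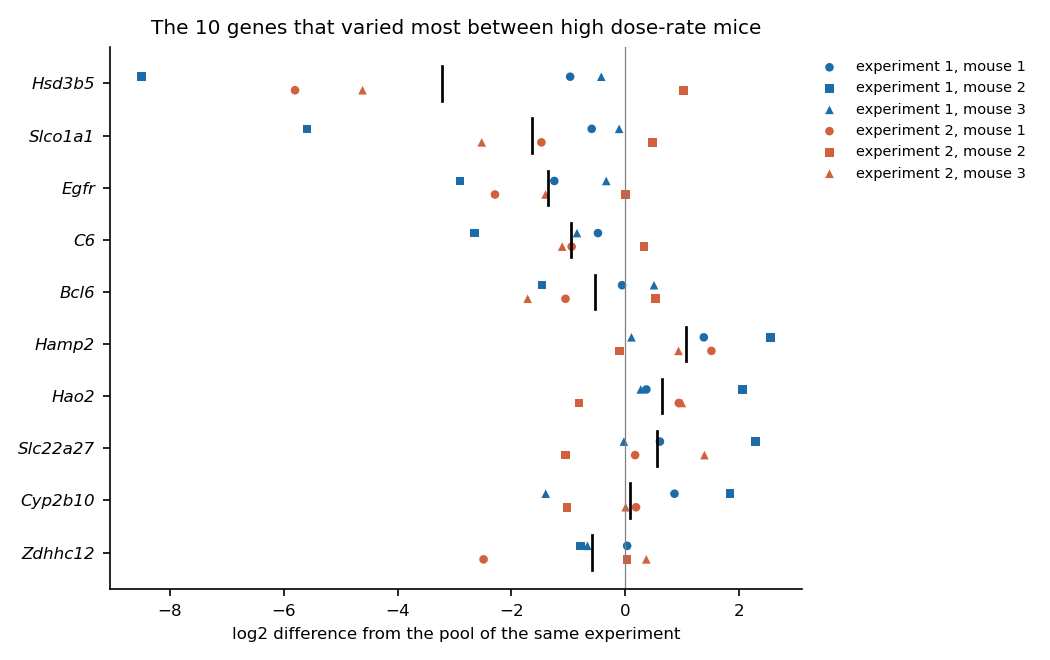
Log2 difference of each high dose-rate mouse from the pool of its own experiment for the 10 genes with a signal of at least 500 that varied most between these mice, with the fitted difference as a black bar. For Hsd3b5 and Slco1a1 the second mouse of experiment 1 and the first and the third mouse of experiment 2 are lowest. Within each experiment the same mice lie above the others for Hamp2.

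Genes that answer DNA damage differed in both directions, from -0.91 to 0.70 in the p53 and checkpoint list. Of 27 p53 targets and checkpoint genes tested, 6 lay above their pool in all 6 mice (8.39% of all genes) and 2 below (8.18%), and none passed the threshold. The median was 0.02, with -0.03 when the pool of experiment 1 was left out and 0.17 when that of experiment 2 was. The 6 were Bbc3, Plk2, Polk, Phlda3, Btg2 and Gadd45b, whose 2 other probe sets had the opposite sign. Bbc3, which promotes cell death, was 255 in the pool of experiment 1 against 408, 442 and 282, and 213 in that of experiment 2 against 566, 349 and 286 (0.68 ± 0.25; adjusted p = 0.53, limma). Phlda3, an inhibitor of AKT, was 159.7 and 182 in the pools and 214 to 304 in the mice (0.54 ± 0.31). Cdkn1a, the p21 inhibitor of the cell cycle, was 377 against 478, 711 and 367, and 440.2 against 591, 341 and 783 (0.35 ± 0.42), so mice lay on either side of the pools. Mdm2, at 0.29 ± 0.32, and Ccng1, at 0.01 ± 0.15, differed by less than their errors.

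The 33 DNA repair genes had a median of 0.08 (0.03 without the pool of experiment 2), with Brca2 at 85.7 and 144 in the pools and 162 to 294 in the mice (0.86 ± 0.27). The 26 antioxidant genes had a median of 0.00. No member lay above its pool in all mice (8.39% of all genes), and 3 lay below (8.18%). Of 45 oxidative phosphorylation genes, 38 were higher, with a median of 0.09 that was -0.01 after centring each array on its median. That centring moved the median of all genes by -0.10. The 31 extracellular matrix genes had a median of 0.19, which was 0.11 without the pool of experiment 1 and 0.32 without that of experiment 2, and Sparc, a collagen-binding protein, was above its own pool in 6 of 6 mice (0.56 ± 0.20). Cell cycle genes, 22 tested, had a median of -0.01, and E2f8, a repressor of the cycle, was 208 and 357 in the pools and 35.1 to 134 in the mice (-1.44 ± 0.45).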

How the data were processed

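Gene expression in liver was measured on 20 Affymetrix arrays. The deposited values are signal intensity on a linear scale, made with MAS5 per the submitters' processing notes, which name no version. Every array had a trimmed mean of 500.0 (2% cut at each end). The brighter part of the probe sets, from the median of their means upward, was kept (22519), and 1 per gene was used (not _s_at or _x_at first, then the highest mean), giving 11216 genes. Gene names came from the platform annotation. Analysis used log2(signal + 7.12), the added value being the 10th percentile of signals, which understates changes of dim genes. limma 3.58.1 in R 4.3.3 was fitted to all 20 arrays with terms for dose level and experiment (15 residual degrees of freedom), a variance trend, two-sided contrasts and Benjamini-Hochberg adjustment over all genes at 0.05. The difference between experiments was an interaction. The procedure was tested on simulated data. Errors are standard errors. The number of arrays limits the precision, and a p-value covers only how these samples vary.

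The genes compared, the 35 pathway and 14 cell type lists (733 genes tested) and the tests were chosen with earlier results of these data known. Named genes are those past the threshold, the next 10 by p in each direction with 6 of 6 mice on one side, the 8 largest by the 1.5-fold rule in each direction, the 5 with the smallest p for the interaction, the 10 most variable, and up to 5 members of each list by p, with members needed to describe a list; not all of these are printed. Alternatives are given with their effect at the end. Promoter windows came from RefSeq. Same-numbered mice did not pair: their deviations did not all correlate above 0.1.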

Additional observations from a re-analysis of the deposited data

Results flagged for a closer look

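The effect of the high dose-rate on Cela3b differed between the experiments, by -3.62 on the log2 scale (interaction in limma, adjusted p = 0.022). It lay at 3.30 in experiment 1, where the pool had a signal of 7.87, and at -0.33 in experiment 2.

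A probe set without a gene symbol in the annotation used here entered no comparison by gene. It was lower in the high dose-rate mice by -0.96 on the log2 scale (limma on each probe set by itself, adjusted p = 0.0443), with 1858 and 1981 in the pools and 703 to 1153 in the 6 mice. Groups of 3 mice were too small for a test of single outlying samples.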

How the results depend on the processing

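The 6 genes called in high against control became 3 with median-centred arrays, 3 without the variance trend, 3 without the experiment term, 15 on the 8 arrays alone, 360 with arrays weighted by their number of mice (205 higher, 155 lower; all 6 included), 0 in experiment 1 alone (654 at an unadjusted p under 0.05, limma), 0 in experiment 2 alone (563) and 13 probe sets with every probe set tested by itself, an alternative chosen after seeing the data. Among those 13 probe sets was 1 of Uty, a gene not past the threshold in the fit by gene. It was higher by 2.06 (adjusted p = 0.0286, limma), with 34.6 and 56.5 in the pools and 120 to 367 in the mice. Leaving out 1 array gave 1 to 24 calls. The weighted fit treats a pool as the mean of its mice and takes no account of array noise. The 1 gene called for the difference between experiments became 0 with a pseudocount at the 25th percentile, 2 with a pseudocount of 1, 0 without a filter, 0 with a filter at the 75th percentile, 2 with quantile normalization, 3 without the variance trend, 0 on 8 arrays and 105 with weights, and 0 to 3 without 1 mouse; neither pool could be left out. For high against low, the 0 calls became 1 with median-centred arrays, 1 with quantile normalization, 2 without the variance trend, 1 in experiment 2 alone and 0 to 17 without 1 array (7 without the third low dose-rate mouse of experiment 1, 17 without that of experiment 2). With the replicate number as a block the count was 1. High against medium stayed at 0 in every fit run. No paired analysis was possible because the control pools carry no mouse number, for high against control. Ssr4 turned to -0.18 with a filter at the 75th percentile and with the probe set of highest mean, and B4galt5 to 0.18 without a filter. In each of these fits another probe set of the gene is taken. The other 112 of 114 genes followed kept their sign in each fit run. When 1 array was left out in turn, Rnf125, C730049O14Rik and Ccdc8 were called in 19 of 20 runs, St3gal5 in 18, Lpin2 in 17 and Angptl4 in 11. Without a filter on dim probe sets Angptl4 was at -0.19 (adjusted p = 0.978, limma), since another of its probe sets is then taken.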
